A study of Mus musculus with 4 samples.

Results

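The cells described here are cone bipolar cells of the mouse retina, chosen by their transcripts. A cell was a member when it had Cck, Tnnt1 and Gng13 above 0, fewer than 3 of 6 rod bipolar genes above 0 (Prkca, Car8, Sebox, Cpne9, Vstm2b, Strip2), Rp1 under 15 per 10000 UMIs, and fewer than 3 of 5 glial genes above 0 (Rlbp1, Slc1a3, Aqp4, Sox9, Dkk3). A UMI, or unique molecular identifier, marks 1 captured transcript. The rule found 779 of 26543 cells, or 2.93%. The genes of the rule chose the cells, so their values are given as a description and support nothing.

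Single-cell transcriptomes were measured in 4 libraries, 1 per group, and each pooled 4 retinae of 2 mice. All mice were 6 weeks old and were Abca4-/-Rdh8-/- on C57BL/6J, so every group lacked the transporter ABCA4 and the retinol dehydrogenase RDH8, which help to clear the retinal that light releases from visual pigment. One group received no bleaching light and DMSO vehicle. The other groups were bleached with white light at 10000 lux for 30 min and collected 1 day later, after DMSO vehicle, after 2 mg/kg rolipram, an inhibitor of phosphodiesterase 4, or after 2 mg/kg BC11-38, an inhibitor of phosphodiesterase 11. Drugs were injected into the peritoneum 30 min before the light, after 24 h of dark adaptation and with pupils dilated by 1% tropicamide. Series of 4 values below follow the order no bleach with vehicle, bleach with vehicle, bleach with rolipram, bleach with BC11-38. With 1 library per group no test between groups was possible. Intervals are exact 95% intervals for counting error only, and effects of the mice, the dissection and the treatment cannot be told apart.

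Bipolar cells carry signals from photoreceptors to ganglion and amacrine cells. Photoreceptors release glutamate in the dark. ON bipolar cells sense it with the receptor mGluR6, encoded by Grm6, which keeps the cation channel TRPM1 closed through a G protein, so that these cells depolarize in light. OFF bipolar cells use kainate and AMPA receptors, such as the one encoded by Grik1, and depolarize when light goes off. Cone bipolar cells fall into many types that differ in the depth at which their axons end. Cck encodes the precursor of the neuropeptide cholecystokinin, Tnnt1 the troponin T of slow muscle, and Gng13 the gamma subunit of the ON bipolar G protein.

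Upstream sequences are shown for Cck, which defines the cells, for Cnmd, which is outside the rule and separated them from other ON cone bipolar cells, and for the ON response genes Trpm1 and Isl1. Each is the 200 bases before a RefSeq transcript start on GRCm38.p6. Cck has chr9:121495695-121495894 on the minus strand, Cnmd chr14:79662184-79662383 on the minus strand, Trpm1 chr7:64153635-64153834 on the plus strand and Isl1 chr13:116309689-116309888 on the minus strand. Capitals mark a match, on either strand, to TAATCC, a homeodomain motif read by OTX2 and CRX, or to CAGATG, an E-box.
Cck: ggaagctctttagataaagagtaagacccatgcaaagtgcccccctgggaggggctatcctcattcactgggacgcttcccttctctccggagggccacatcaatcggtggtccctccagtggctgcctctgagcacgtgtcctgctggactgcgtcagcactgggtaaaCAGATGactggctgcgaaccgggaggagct
Cnmd: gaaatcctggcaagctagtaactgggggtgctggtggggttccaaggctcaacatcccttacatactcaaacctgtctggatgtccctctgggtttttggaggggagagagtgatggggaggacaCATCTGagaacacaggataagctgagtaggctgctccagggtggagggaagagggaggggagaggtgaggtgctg
Trpm1: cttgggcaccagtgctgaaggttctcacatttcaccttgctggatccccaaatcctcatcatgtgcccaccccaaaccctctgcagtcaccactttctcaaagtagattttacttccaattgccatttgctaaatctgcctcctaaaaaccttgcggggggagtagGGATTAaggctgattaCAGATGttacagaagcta
Isl1: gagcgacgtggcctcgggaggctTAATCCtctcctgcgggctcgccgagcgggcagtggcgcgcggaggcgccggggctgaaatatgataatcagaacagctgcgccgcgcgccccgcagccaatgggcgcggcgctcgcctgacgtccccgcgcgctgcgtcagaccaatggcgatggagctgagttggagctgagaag
The homeodomain motif TAATTA and the E-box CATATG were searched as well, on both strands, and had no match in 9 transcript starts of 7 genes. Of 32851 windows of this length, 4.91% held TAATCC and 11.6% held CAGATG, while 3.73% held TAATTA and 2.65% held CATATG. The match began 30 bases before the start in Cck and 75 bases before it in Cnmd. Trpm1 had TAATCC at 34 and CAGATG at 18 bases before its first start, and Isl1 had TAATCC at 177. The windows of Tnnt1, Gng13 and Grm6 and of the second Trpm1 start held none of the motifs. A match describes these letters only.

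Members were 134 of 5697 cells (2.35%, 1.97 to 2.78) without bleach and 209 of 6809 cells (3.07%, 2.67 to 3.51) with bleach and vehicle, with Clopper-Pearson intervals. They were 261 of 7894 cells (3.31%, 2.92 to 3.72) with rolipram and 175 of 6143 cells (2.85%, 2.45 to 3.3) with BC11-38. Their median depth was 6455.5, 5577, 3868 and 5299 UMIs, so the rolipram members were the shallowest. After each cell was thinned to 2000 UMIs, with shallower cells left out, the shares were 2.94%, 3.98%, 3.99% and 3.37%. The library without bleach had the lowest share both ways. Among cells with Gng13 within the Rp1 and glial limits the order differed, at 10.3%, 10.1%, 11.6% and 9.35%, lowest with BC11-38. Members held 946796, 1266085, 1092335 and 1004679 UMIs in all, and levels below are UMIs per 1000000 of these totals, abbreviated CPM.

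Cck was above 0 in 1485 cells, Cck and Tnnt1 in 870, and all 3 required genes in 832. The rod bipolar genes then left out 42 cells, Rp1 5 and the glial genes 7. Just inside the limits, 131 members held 2 rod bipolar genes, 7 held 2 glial genes, and the highest Rp1 was 13.2 per 10000. Just outside, 28 cells held 3 rod bipolar genes and the lowest Rp1 was 16.8. A single UMI of Cck admitted 53 members and a single UMI of Tnnt1 69. Of all barcodes, 92 occurred in more than 1 library, and 4 members had a barcode seen in another library.

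The libraries differed in sex. Xist, the transcript of the inactive X chromosome, was found in 66, 139 and 97 members without bleach, with rolipram and with BC11-38, and in none of the 209 bleached vehicle members. Y-linked UMIs without Xist were found in 52, 158, 87 and 65 members. Every comparison with the bleached vehicle library therefore also sets a library without Xist against one with it.

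Among the genes the rule required, Cck was at 3044, 3100.1, 3054 and 2563 CPM, lowest with BC11-38, and at 16.3 to 33.4 in all other cells. Tnnt1 was at 1384, 1218, 1127 and 1119 CPM, against 69.4 to 108 in other cells. Of the rod bipolar genes that the rule limited, Car8 was at 50.7, 83.7, 29.3 and 7.96 CPM and Strip2 at 45.4, 33.2, 87 and 58.7, so they varied between libraries. Scgn, which encodes the calcium sensor secretagogin and is outside the rule, was found in 760 members (97.6%). Its level was 1544, 1160.3, 1748 and 1927 CPM, lowest in the bleached vehicle library, and rod bipolar cells had 19.3 to 41.4.

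The ON label was checked against defining genes. Grm6 was found in 709 members (91%), at 909, 1014, 1119 and 711 CPM, against 72.7 to 131 in other cells. Trpm1 was at 1721, 1633, 1682 and 1478 CPM and Isl1, an ON bipolar transcription factor, at 901, 632, 997 and 779. Among markers of ON cone bipolar types, Cnmd, which encodes chondromodulin, was found in 532 members (68.3%) at 352, 291, 347 and 328 CPM, against 6.9 to 8.29 in other cells. Slitrk5 was at 27.9 to 36.6 CPM, and Sox6, Chrm2, Lrrtm1 and Igfn1 were each at 15.8 or less. Serpinb1b was at 0 in all 4, where 3 UMIs would be 2.37 to 3.17 CPM. The label held for most members, and Cnmd was the type marker most of them carried.

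It did not hold for all. Of the members, 82 (10.5%) held at least 2 of the 6 OFF bipolar genes Grik1, Gsg1, Erbb4, Nnat, Col11a1 and Neto1, and they numbered 14, 25, 21 and 22 by library. Their median depth was 8889 UMIs, against 4884 for the other 697. Grm6 was found in 39% of the former and 97.1% of the latter. Doublets were not called. Leaving the 82 cells out, as done below, lowers Grik1, Gsg1 and Neto1 by the choice itself, so such values are a description.

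Neto1, an auxiliary subunit of kainate receptors, split these cells. In the 47 with Neto1, Grm6 was found in 6 cells and Isl1 in 5. The tachykinin receptor gene Tacr3 was found in 91.5% of them, the transcription factor Ebf1 in 91.5%, Nxph1 in 87.2% and Syt2 in 89.4%, and Cck was at 298 CPM, against 3425 in members with under 2 OFF genes. These cells go against the label. In the 35 without Neto1, Gsg1 was found in 97.1%, Grik1 in 94.3% and Cabp5 in 88.6%, together with Grm6 in 74.3%, Isl1 in 74.3% and Cnmd in 51.4%. Gsg1 and Grik1 are among the genes that chose these cells, so their high shares follow largely from that choice. The 35 cells carried OFF and ON genes under the same barcodes.

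**Figure D1:**
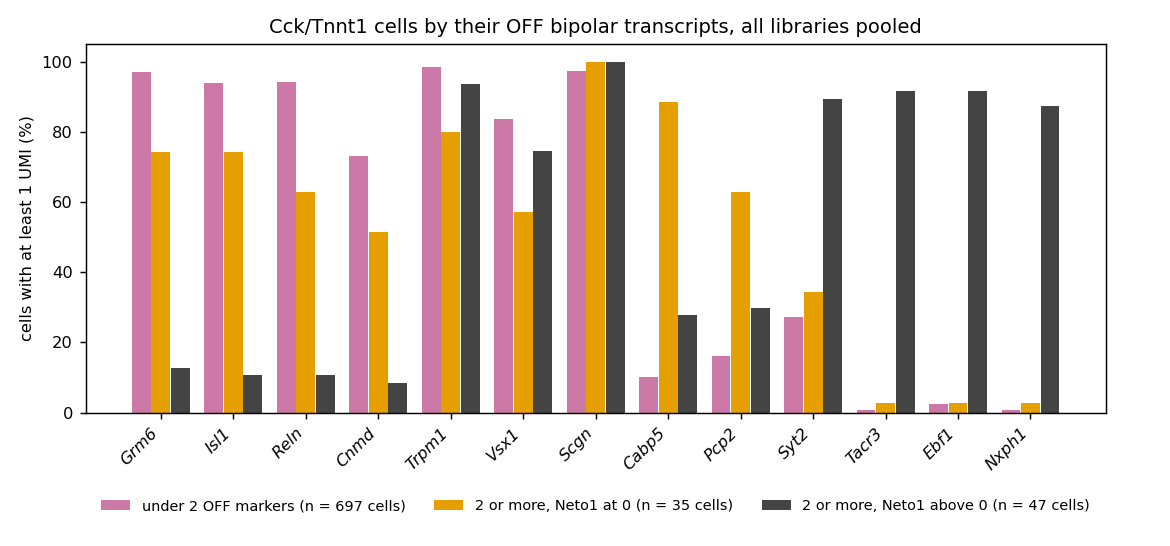
Percent of cells with at least 1 UMI (vertical axis) of each gene in members with under 2 OFF genes (n = 697 cells), with 2 or more and Neto1 at 0 (n = 35) and with 2 or more and Neto1 above 0 (n = 47), libraries pooled. Grm6 was found in 97.1%, 74.3% and 12.8% of the 3 sets, and Tacr3 in 0.717%, 2.86% and 91.5%.

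The 697 members with under 2 OFF genes shared the ON genes. Isl1 was found in 94% of them, Trpm1 in 98.6%, Vsx1, a homeodomain factor of cone bipolar cells, in 83.6% and Reln, which encodes the secreted protein reelin, in 94.1%. Cnmd was found in 510 of them, or 73.2%. Cck was at 3723, 3603, 3435 and 3039.6 CPM in those with Cnmd and at 2648, 3849, 3387 and 2929 in those without it. Grm6 was at 1140.4, 1218, 1292 and 873 CPM with Cnmd and at 681, 1162, 1152 and 738 without. In the unbleached library, the cells without Cnmd also had Pcp4 at 3597 CPM, against 21.4 with Cnmd. Calb2, which rests on a few cells as given below, was there at 1131 CPM without Cnmd and 12.2 with it. Whether a few cells set the low Cck and Grm6 levels there was not tested. Beside Cnmd itself, the widest gap held in all 4 libraries was in Pcp2, at 27.5, 64.9, 32.6 and 42.9 CPM with Cnmd and 183, 142, 128 and 115 without.

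Members were set beside 3 other bipolar classes within each library. The classes were cut by transcripts, so these values are a description. All kept the Rp1 and glial limits, rod bipolar cells had Gng13 and at least 4 of the 6 rod bipolar genes, and the others fewer than 3. The Vsx1 and Reln class also had Gng13, and the OFF class had Grik1 and Gsg1 with Grm6 at 0. Against 1874 rod bipolar cells, 444 of 9708 genes (4.57%) were at least 2-fold higher in members in all 4 libraries and 310 (3.19%) lower. Against 535 other cells with Vsx1 and Reln, 202 of 8280 (2.44%) were higher and 178 (2.15%) lower. Against 1436 OFF cone bipolar cells with Grik1 and Gsg1, 211 of 9617 (2.19%) were higher and 402 (4.18%) lower.

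Rod bipolar cells gather rod signals for dim light. Members had more Vsx1, at 555, 453, 772 and 718 CPM against at most 4.08, and more Reln, at 619 to 794 against at most 5.56. They also had more of the sulfatase Sulf1, at 215 to 265 CPM against at most 3.03, the cadherin Cdh8, at 221 to 242 against at most 3.86, and the potassium channel Kcna4, at 97.5 to 122 against at most 2.23. Pcp2, a modulator of G protein signalling, was lower, at 88.8 to 186 CPM against 8682 to 11779.9, and so was Lrrtm4, a synaptic organizer, at 0 to 3.66 against 218 to 367. Prkca and Sebox were lower as the rule requires. Gjd2, which encodes the gap junction protein connexin 36, was at 449.9, 416, 381 and 312 CPM in members and 5.93 to 10.5 in rod bipolar cells.

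Of all 1111 cells with Vsx1, Reln and Gng13 within these limits, 576 were members, which is 73.9% of the members. The 535 others carried a different set of genes. They had Igfn1 at 209, 252, 271 and 268 CPM, against at most 1.06 in members. They had fibronectin (Fn1) at 375 to 619 CPM against at most 3.17, the cadherin Cdh9 at 224 to 295 against at most 8.69, the transcription factor Sox5 at 152 to 223 against at most 4.58, and Pcp2 at 2660.3 to 3806. Members in turn had Cnmd at 291 to 352 CPM against 3.69 to 18, the contactin Cntn5 at 153 to 204 against 2.46 to 15.2, Vwc2l at 79 to 114 against 2.46 to 7.18 and the guidance factor Sema3d at 49.8 to 61.7 against 0 to 4.79. These genes were chosen for the size of their smallest fold over the libraries.

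Against the OFF cells, members had Isl1 at 632 to 997 CPM against 2.76 to 10.2 and Cnmd at 291 to 352 against at most 1.66. Grin3a, an NMDA receptor subunit, was at 75 to 187 CPM against at most 2.48, and the metabotropic receptor Grm5 at 249 to 372 against at most 16.4. Without the cells with OFF genes, members had the zinc finger factor Fezf2 at 0 to 1.22 CPM against 159 to 203 and the contactin Cntn4 at 2.51 to 4.25 against 215 to 288. Scgn was high in both, at 854 to 1338 CPM in the OFF cells. Scg2, the precursor of secretoneurin, was at 4241, 3687, 3566 and 3899.8 CPM in members and at most 1327 in the other 3 classes.

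**Figure D2:**
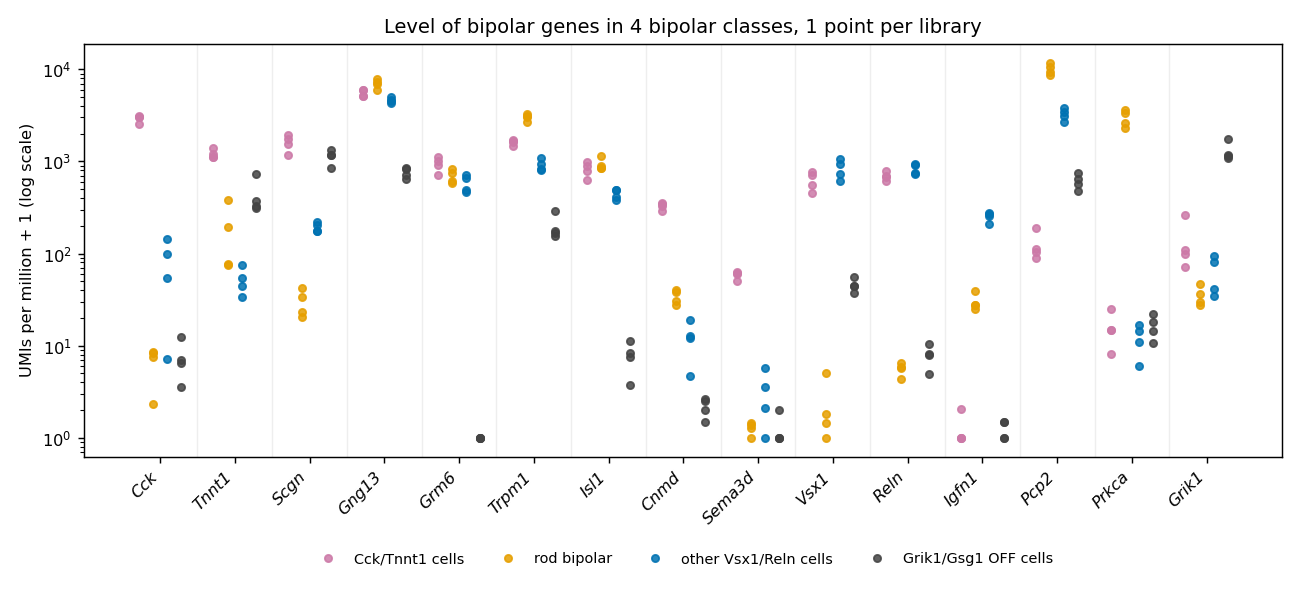
CPM plus 1 on a log axis (vertical) of each gene in the Cck and Tnnt1 cells, rod bipolar cells, other Vsx1 and Reln cells, and OFF cells with Grik1 and Gsg1, with 1 point per library. The Cck and Tnnt1 cells had Cnmd at 291 to 352 and Igfn1 at no more than 1.06, while the other Vsx1 and Reln cells had Igfn1 at 209 to 271.

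Markers of other cell types were summed over the members. The 14 rod markers summed to 3106, 2792, 3955 and 3428 CPM in members, against 6938 to 13496 in other cells, and none was at 0. The 10 Muller glia markers summed to 320.0, 507, 229 and 288 CPM, against 6501 to 9015. The 10 cone markers summed to 3196, 3958, 3569 and 3197 CPM in members and 3083, 2251, 3602 and 4744 in other cells, so members were the higher in both vehicle libraries. Most of the sum was Gnb3, which ON bipolar cells also use, at 1646, 2087, 1753 and 1205 CPM, and Gngt2, a G protein gamma subunit, at 1358, 1532, 1602 and 1779.7, and both were higher in members than in other cells. The cone arrestin gene Arr3, at 7.39, 34, 17.4 and 15.9 CPM, and Pde6h, at 22.2, 88.5, 21.1 and 18.9, were lower in members than in other cells. The 12 amacrine markers summed to 226, 48.2, 199 and 107 CPM, with 1, 3, 1 and 2 of them at 0, and 14 members held 2 or more of 6 amacrine genes. The 13 microglial markers summed to 8.45, 3.95, 104 and 8.96 CPM, with 9, 11, 1 and 11 at 0, and the rolipram sum was 9.56 without the cells with OFF genes. Without the 14 members with amacrine genes, the log2 ratio of Rims1 after bleach turned from -2.50 to 0.39, and the median of the immediate early list with BC11-38 went from -0.27 to -0.69. The part of the other markers in the results below was not tested.

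The bleached vehicle library was set against the library without bleach to ask what differed 1 day after light. A gene was counted at a ratio of 2-fold or more when both libraries together had no fewer than 100 UMIs of it. Of 4082 genes, 19 (0.465%) were higher and 12 (0.294%) lower after bleach, 0.759% in all, and the median log2 ratio over all was 0.02. Without the cells with OFF genes, 10 of 3393 (0.295%) were higher and 14 (0.413%) lower.

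A2m, which encodes the secreted protease inhibitor alpha-2-macroglobulin, was higher after bleach. It was at 76, 216, 22.9 and 0.995 CPM and had a UMI in 40 of 134, 110 of 209, 18 of 261 and 1 of 175 cells. The bleached vehicle library was highest, and both drug libraries lay below the library without bleach. The ratio of bleached to unbleached was 2.85 (2.19 to 3.74). Peg10, an imprinted gene derived from a retrotransposon, was at 41.2, 103, 19.2 and 6.97 CPM and 2.49-fold higher (1.73 to 3.66). In cells with a Y-linked and no Xist UMI the log2 ratios were 0.84 for A2m and 0.58 for Peg10, under the 2-fold limit, against 1.5 and 1.31 over all members. After bleach and without it, A2m was at 194 against 64.1 CPM in rod bipolar cells, 85.1 against 41.8 in the other Vsx1 and Reln cells and 179 against 56.9 in OFF cells.

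Other genes were also higher after bleach. The homeodomain factor Onecut2 was at 81.4 against 31.7 CPM (2.57-fold higher, 1.7 to 4.0), the kinesin Kif22 at 82.9 against 39.1, the exchange factor Psd at 61.6 against 27.5 and the repair factor Xpa at 79 against 38. Gsg1 was at 313 against 70.8 CPM, Grik1 at 264 against 69.7, Otor at 64.8 against 28.5 and the synaptic adhesion gene Lrrtm2 at 68.7 against 31.7. Without the cells with OFF genes these were at 22.2 against 6.27, 21.2 against 17.6, 22.2 against 22.6 and 28.3 against 17.6 CPM. All 4 were lower in both libraries without those cells. Gsg1 and Grik1 help to define those cells, so the fall of Gsg1 and Grik1 was fixed in advance.

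Lower after bleach were Jmjd6, a lysyl hydroxylase, at 144, 66.3, 78.7 and 118 CPM (2.17-fold lower, 1.64 to 2.88), the ephrin ligand Efna5 at 73.9, 30, 59.5 and 72.7 (2.46-fold lower, 1.64 to 3.76) and Crem, the cyclic AMP responsive element modulator, at 84.5, 40.3, 30.2 and 71.7 (2.1-fold lower, 1.46 to 3.04). With BC11-38 all 3 were above the bleached vehicle library, and with rolipram Crem was below it. Rims1, a scaffold of the release site, was at 32.4 against 185 CPM, and a single unbleached cell gave 55.4% of its UMIs. Its direction turned, with log2 ratios of 0.64 in cells with a Y-linked and no Xist UMI, 0.41 with Scgn required, 0.39 without the cells with amacrine genes and 0.12 without cells above 2 times the median depth. Neto1 was at 52.9 against 120.4 CPM, and at 12.1 against 0 without the cells with OFF genes.

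The rolipram library was set against the bleached vehicle library. Of 4318 genes, 17 (0.394%) were higher and 34 (0.787%) lower with rolipram, 1.18% in all, and the median log2 ratio over all was -0.01. Without the cells with OFF genes, 19 of 3648 (0.521%) were higher and 25 (0.685%) lower. A2m was 9.46-fold lower (6.27 to 14.9), and Peg10 was 5.34-fold lower (3.35 to 8.92). Sulf2, a sulfatase of heparan sulfate, was 5.15-fold lower (3.46 to 7.91), Syt2, a synaptotagmin, 3.57-fold lower (2.76 to 4.66), and the kinase Rock2 2.97-fold lower (2.48 to 3.58). Endou, an endoribonuclease, was 3.06-fold lower, Siah3 2.84-fold lower and Slc8a1, a sodium and calcium exchanger, 2.19-fold lower. In cells with a Y-linked and no Xist UMI the log2 ratios of A2m and Syt2 were -2.35 and -1.16, against -3.22 and -1.83. Gm8797 was at 411, 374, 76.9 and 268 CPM in members and at 389, 297, 63.5 and 216 in other cells, low in the rolipram library in both.

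Strip2, a gene of the rule, was at 87 against 33.2 CPM, Flywch1 at 127 against 61.6 and Aftph, a protein of clathrin trafficking, at 102 against 50.5, all higher with rolipram. Flywch1 was at 131 against 65.7 CPM without the cells with OFF genes, just under 2-fold. Of 14 rod markers 13 were compared and 5 were past 2-fold higher with rolipram, beside 0.394% of all genes. Of the 13, only 1 was not at a higher level in other cells than in members. The rod markers summed over members, given above, were highest in the rolipram library. Neto1 was at 111 against 52.9 CPM, and at 13.8 against 12.1 without the cells with OFF genes. Pde4b, which encodes a target of rolipram, was at 136, 125, 209 and 125 CPM, 1.67-fold higher (1.36 to 2.06) with rolipram, under the 2-fold limit.

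The BC11-38 library was set against the same bleached vehicle library, so a value that was high or low there enters both comparisons. Of 4147 genes, 30 (0.723%) were higher and 57 (1.37%) lower with BC11-38, 2.1% in all, and the median log2 ratio over all was -0.05. Without the cells with OFF genes, 30 of 3418 (0.878%) were higher and 33 (0.965%) lower. A2m had 1 UMI with BC11-38 and 274 in the bleached vehicle library (217-fold lower, 38.7 to 8619). Other cells had A2m at 19.4, 62.1, 12.5 and 1.75 CPM, so it was also highest with bleach and vehicle and lowest with BC11-38 outside the members. Peg10 was 14.7-fold lower (6.95 to 37.4), and Sulf2 was 9.15-fold lower (5.4 to 16.7). Slc8a1 was 5.0-fold lower (3.52 to 7.27), Syt2 3.98-fold lower (3.02 to 5.33) and Rock2 3.48-fold lower (2.85 to 4.28). The phosphatase Ptp4a3 was 2.93-fold lower, the formin Daam1 2.6-fold lower and Lrrtm2 4.31-fold lower. Grik1 was at 107 against 264 CPM, and at 30.6 against 21.2 without the cells with OFF genes.

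The levels in each library show where these genes lay. Syt2 was at 136, 242, 67.7 and 60.7 CPM, and at 108, 235, 45.7 and 23.2 without the cells with OFF genes. After thinning, 24.1%, 31.9%, 6.91% and 7.02% of members had a Syt2 UMI. Sulf2 was at 79.2, 137, 26.5 and 14.9 CPM, Rock2 at 256, 419, 141 and 120.4, Slc8a1 at 136, 184, 84.2 and 36.8 and Daam1 at 131, 231, 117 and 88.6. In each of these the bleached vehicle library was highest and the BC11-38 library lowest.

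The other bipolar classes are given side by side, with no test of the classes against each other. With BC11-38 against bleach with vehicle, Rock2 was at 32 against 117 CPM in rod bipolar cells, 348 against 974 in the other Vsx1 and Reln cells and 205 against 524 in OFF cells. Sulf2 was at 21.8 against 183 CPM, 198 against 419 and 65 against 260.0 in the same classes. Syt2 was at 11.1, 36.7, 3.71 and 0.753 CPM across the 4 libraries in rod bipolar cells and at 63.5, 145, 33.7 and 22.3 in OFF cells.

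**Figure D3:**
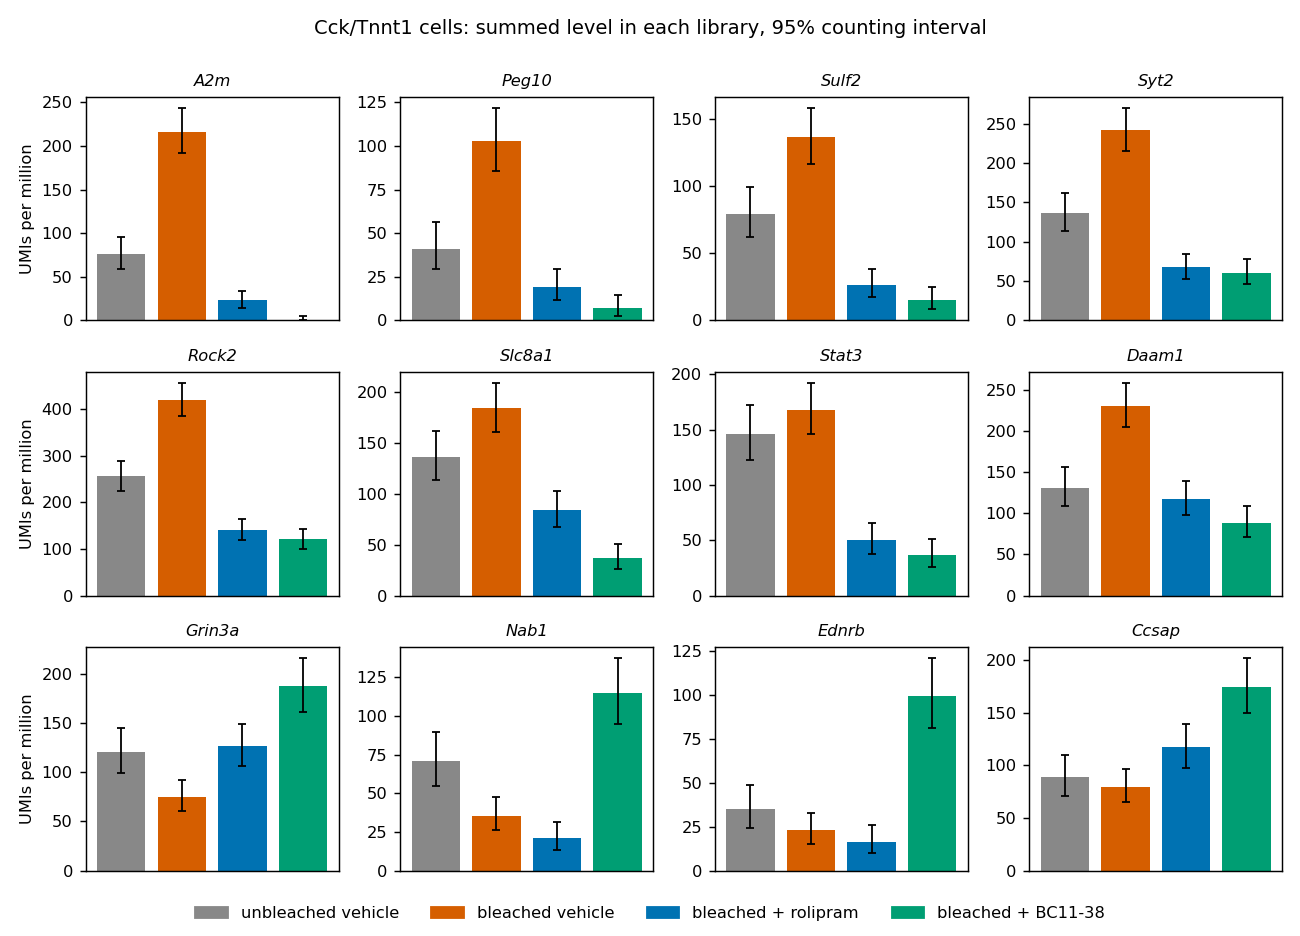
CPM (vertical axis) of each gene in the Cck and Tnnt1 cells of each library, with bars for the summed level and lines for its exact 95% counting interval. A2m ran from 216 with bleach and vehicle to 0.995 with BC11-38, and Ednrb was highest with BC11-38, at 99.5.

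Higher with BC11-38 than with vehicle were Nab1, a corepressor of EGR factors (3.22-fold higher, 2.26 to 4.65), and Grin3a (2.49-fold higher, 1.94 to 3.23). Dbndd2 was 2.5-fold higher, Ccsap, a protein of centrioles and cilia, 2.18-fold higher, Psd3 2.39-fold higher and the phosphodiesterase Pde10a 2.13-fold higher. Grin3a was at 120.4, 75, 126 and 187 CPM and Pde10a at 98.2, 68.7, 68.7 and 146, highest with BC11-38, and the log2 ratio of Pde10a was 0.88 in cells with a Y-linked and no Xist UMI. Other cells had Pde10a at 116, 37.5, 107 and 192 CPM, also highest with BC11-38 and there above the level in members. The transcription factor Bhlhe22 was at 103 against 22.9 CPM, and at 24.5 against 4.04 without the cells with OFF genes. Neto1 was at 167 against 52.9 CPM, and at 9.78 against 12.1 without them.

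Lens crystallins were higher with BC11-38 and rested on single cells. Cryaa was at 638 against 3.95 CPM with 97% of its BC11-38 UMIs in 1 cell, Crybb2 at 222 against 6.32 with 96% and Cryab at 654 against 22.1 with 97%. In other cells of the 4 libraries, Cryaa was at 0.0868, 18.8, 0.328 and 105 CPM. The lens was removed at dissection, per the labels.

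Rolipram and BC11-38, given at the same dose and time, were set against each other. Of 3885 genes, 9 (0.232%) were higher and 25 (0.644%) lower with rolipram than with BC11-38, 0.875% in all, and the median log2 ratio over all was 0.04. Without the cells with OFF genes, 8 of 3351 (0.239%) were higher and 25 (0.746%) lower. Ednrb, the endothelin receptor B, was at 34.9, 22.9, 16.5 and 99.5 CPM and was 6.04-fold lower (3.63 to 10.6), with a UMI in 19 of 134, 18 of 209, 13 of 261 and 51 of 175 cells. Other cells had Ednrb at 22.3, 123, 13.8 and 14.3 CPM. Nab1 was at 70.8, 35.5, 21.1 and 114 CPM and was 5.44-fold lower (3.45 to 8.92). Its log2 ratio was -1.71 in cells with a Y-linked and no Xist UMI, against -2.42. In the same cells Cbarp, at -0.65 against -1.18, and Ldb2, at 0.80 against 1.04, were under the 2-fold limit, and Haghl was just under it. Rd3, a regulator of guanylate cyclase, was at 124 against 309.6 CPM, Mir670hg at 90.6 against 222, Enho at 60.4 against 142 and Cbarp at 52.2 against 118. Higher with rolipram were Ldb2, a partner of LIM homeodomain factors, at 111 against 53.7 CPM, Haghl at 115 against 56.7, Gm10076 at 341 against 159 and Onecut2 at 72.3 against 20.9. Other cells had Gm10076 at 168, 378, 366 and 129 CPM, also higher with rolipram than with BC11-38. Leaving out the cells with OFF genes, Ldb2 was at 118 against 62.3 CPM and Gm10076 at 330.3 against 167, both just under 2-fold. A single cell gave 52.4% of the Onecut2 UMIs with BC11-38 and 30.4% with rolipram.

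Gene lists were read in 3 comparisons: bleach against no bleach, rolipram against bleached vehicle, and BC11-38 against bleached vehicle. Of 14 genes of the ON cascade from receptor to channel, 12 were compared, with median log2 ratios of 0.04, 0.10 and -0.08. Pcp2, at 88.8 against 186 CPM with rolipram, was the 1 gene of the list past 2-fold, beside 0.787% of all genes lower there. At 59.5 against 89 CPM without the cells with OFF genes, Pcp2 was not past 2-fold. Gnb3, the beta subunit of the ON bipolar G protein, was lowest with BC11-38 (1.73-fold lower, 1.62 to 1.85, against bleach with vehicle). Rgs11, which speeds the G protein's shutoff, was at 209, 242, 292 and 212 CPM and Gpr179, which anchors it, at 274, 249.6, 293 and 263.

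Of 18 bipolar transcription factors, 13, 13 and 14 were compared, with medians of -0.14, 0.19 and 0.21. Past 2-fold, Prdm8 was lower with rolipram, beside 0.787% of all genes, and Bhlhe22 was higher with BC11-38, beside 0.723%. With BC11-38, 1 of the factors was past 2-fold lower, beside 1.37% of all genes. Among members with 2 or more OFF genes, Prdm8 was at 169 to 341 CPM with Neto1 and at 0 to 58.4 without it. Vsx1 was at 555, 453, 772 and 718 CPM, higher in both drug libraries than in either vehicle library. Irx6 was lowest with rolipram, at 131, 133, 70.5 and 143 CPM.

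Of 23 ribbon synapse genes 20 were compared, with medians of 0.05, 0.04 and -0.04. Rims1 after bleach, whose direction turned as given above, was the 1 gene past 2-fold, beside 0.294% of all genes lower there. Cacna1f, a calcium channel of ribbon terminals, was at 52.8, 88.5, 72.3 and 83.6 CPM and the vesicular glutamate transporter Slc17a7 at 733, 757, 824 and 765. Of 17 receptor genes for GABA and glycine 8 were compared, none was 2-fold apart, and the medians were -0.02, -0.01 and 0.16. Gabrr1 was at 312, 299, 266 and 318 CPM and Gabrr2 at 411, 332, 374 and 439.9.

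Among calcium binding proteins, Cabp5, a calcium sensor of bipolar cells, was at 65.5, 219.6, 92.5 and 86.6 CPM, and at 31.4, 47.5, 28.7 and 20.8 without the cells with OFF genes, lower in every library. Calb2, which encodes calretinin, was at 178, 3.16, 10.1 and 83.6 CPM, in 9 of 134, 4 of 209, 7 of 261 and 4 of 175 cells. A single cell gave 47.9% of its UMIs without bleach and 71.4% with BC11-38, so these levels rest on a few cells.

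None of the peptide genes compared, Cck included, showed a 2-fold difference. Of 14 genes for peptides, granins and their processing, 8 or 9 were compared, with medians of -0.06, -0.03 and 0.08. The convertases that cut peptide precursors differed: Pcsk1 was at 0 in all 4 libraries and Pcsk2 at 50.7, 39.5, 26.5 and 44.8 CPM. The carboxypeptidase Cpe was at 487, 536, 432 and 469 CPM, and the cholecystokinin receptor gene Cckbr was at 0 in all 4. Among the troponins, Tnni2 and Tnnc2 were at 0 in all 4, and Tnni1, Tnni3, Tnnt2 and Tnnc1 were at 9.51 CPM or less.

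Genes of cyclic nucleotide signalling, on which the drugs act, were mostly low. Of 19 phosphodiesterase genes 6 were compared, with medians of 0.01, 0.18 and 0.14. Pde10a with BC11-38 was the 1 past 2-fold, beside 0.723% of all genes higher there. Pde10a was also highest with BC11-38 in other cells, as given above. Pde11a, which encodes the target of BC11-38, was at 8.45, 0, 0 and 0.995 CPM, where 3 UMIs would be 2.37 to 3.17. Pde4a was at 19.9 to 31.1 CPM and Pde4d at 30 to 44.4. Of 19 genes for adenylyl cyclases, protein kinase A and its partners, 7 or 8 were compared, with medians of 0.10, 0.11 and 0.05. Crem after bleach was the 1 past 2-fold, beside 0.294% of all genes lower there.

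Immediate early genes, which neurons and glia switch on within minutes of a stimulus, lay below their level in other cells. Of 17 immediate early genes, 8, 7 and 7 were compared, and none was higher in members than in other cells. Their medians were 0.68, -0.43 and -0.27, and 0.25, 0.05 and 0.05 without the cells with OFF genes. Junb was at 164, 318, 135 and 113 CPM, against 995, 1479, 1141 and 694 in other cells. After bleach Ier2 was past 2-fold higher, beside 0.465% of all genes. With rolipram Junb was past 2-fold lower, beside 0.787% of all genes. With BC11-38 Egr1, Ier2 and Junb were past 2-fold lower, beside 1.37% of all genes. With the OFF gene cells left out, Egr1 was at 162, 114, 122 and 80.7 CPM, Ier2 at 27.6, 42.5, 26.5 and 28.1 and Junb at 119, 213, 109 and 89.2. Of these calls, that of Junb with BC11-38 alone remained past 2-fold. Of 23 interferon response genes 3 were compared, with medians of 0.70, -1.07 and -1.09, and 2 were past 2-fold lower with rolipram and 3 with BC11-38, beside 0.787% and 1.37% of all genes. H2-D1, of the major histocompatibility complex, was at 70.8, 126, 59.5 and 58.7 CPM, against 109, 186, 71.9 and 58 in other cells. H2-K1 was below its level in other cells in each library. Among members with under 2 OFF genes, H2-D1 was at 67.7, 107, 56.3 and 61.1 CPM, past 2-fold in neither drug comparison. H2-K1, at 42.6, 59.7, 28.7 and 41.6 CPM in the same members, had too few UMIs there to be compared. The 2 interferon response genes still compared had medians of 0.60, -0.82 and -1.22. Their median with BC11-38 was therefore still past 2-fold lower, and that with rolipram was not.

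Stat3, which relays cytokine signals, was the 1 injury-linked gene of 20 that could be compared. It was at 146, 168, 50.4 and 36.8 CPM, and both drug libraries lay below both vehicle libraries. It was 3.34-fold lower (2.47 to 4.58) with rolipram and 4.57-fold lower (3.21 to 6.66) with BC11-38 than with bleach and vehicle. Of all genes, 0.787% and 1.37% were past 2-fold lower in these comparisons. The ratio of bleach to no bleach was 1.15 (0.927 to 1.44). After thinning, 20.3%, 27%, 7.32% and 7.02% of members had a Stat3 UMI. Stat3 was at 108, 164, 73.2 and 39.4 CPM in other cells and at 123, 170.2, 64.5 and 36.5 in rod bipolar cells.

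Of 16 genes of the unfolded protein and integrated stress responses 8 were compared, none was 2-fold apart, and the medians were -0.13, -0.02 and 0.03. The chaperone Hspa5 was at 414, 228, 248 and 337 CPM (after bleach 1.81-fold lower, 1.55 to 2.12) and the transcription factor Xbp1 at 153, 78.2, 62.3 and 123 (1.96-fold lower, 1.51 to 2.56). Of 14 heat shock genes 9, 8 and 9 were compared, with medians of -0.25, -0.05 and 0.05. Cryab with BC11-38, which rested on 1 cell as given above, was the 1 past 2-fold, beside 0.723% of all genes higher there. The cochaperone Dnaja1 was at 767, 568, 662 and 1014 CPM. All 14 clock genes compared stayed within 2-fold, with medians of -0.06, 0.02 and 0.08.

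Of 20 glycolysis genes 18, 17 and 17 were compared, with medians of -0.02, -0.03 and -0.16. Ldhb, a subunit of lactate dehydrogenase, was the 1 past 2-fold, at 29.2 against 80.3 CPM after bleach, beside 0.294% of all genes lower. For Ldhb, 1 unbleached cell gave 28.9% of the unbleached UMIs. All 42 nuclear genes of oxidative phosphorylation were compared and none was 2-fold apart, with medians of 0.09, -0.09 and -0.16. The 13 mitochondrially encoded genes had medians of -0.20, -0.05 and 0.34, and every one was higher with BC11-38 than with bleach and vehicle, none by 2-fold. For example, mt-Co1, a subunit of cytochrome oxidase, was at 11366, 10115, 10917 and 13953 CPM in members and at 7472, 6526, 7757 and 9716 in other cells, highest with BC11-38 in both.

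**Figure D4:**
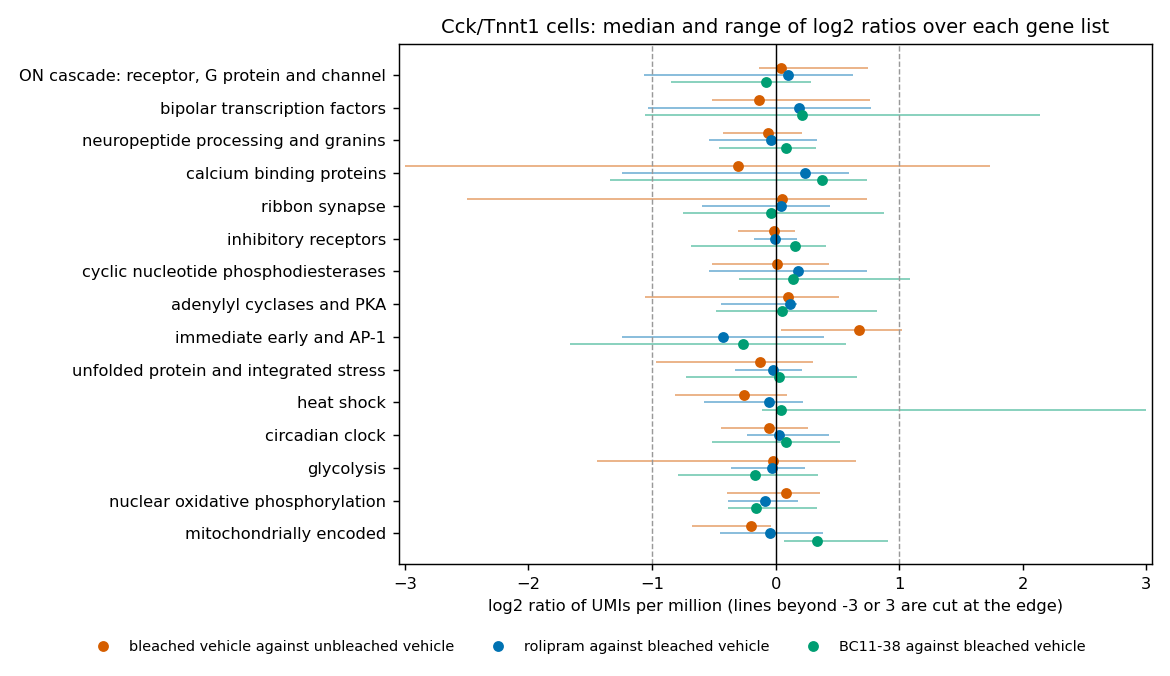
Log2 ratio of CPM (horizontal axis) for 15 gene lists (rows) in 3 comparisons of libraries, with points for the median over the list's compared genes and lines for their range, ended at -3 and 3. The immediate early list had a median of 0.68 after bleach, and the mitochondrially encoded list one of 0.34 with BC11-38.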

How the data were processed

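Libraries were made with 10x v3 chemistry, per the labels. The submitters' processing notes name Cell Ranger 6.0.1, Seurat 3.2.2 and mm10. The deposited matrix holds the natural log of 1 plus UMIs per 10000 of each cell, as its values show, for 20094 genes and 26543 cells with at least 497 genes each. Whole UMIs were recovered (100% whole within a relative tolerance of 0.001), 140410160 in all, and summed over the members of each library. The design had assumed counts, and the recovered UMIs took their place. Ratios had exact conditional Poisson intervals, log2 ratios a prior of 0.5 UMIs, and shares Clopper-Pearson intervals, at 95% (Python 3.11.15, numpy 2.4.6, scipy 1.17.1, pandas 2.3.3). Tested on simulated data for each comparison, 99.5 to 100% of genes changed 4-fold were called. The simulated counts held counting error only, without differences between cells, mice or sexes. They therefore check the calculation and not the calls in these data.

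The members and gene lists were chosen with earlier results of these data known. Named genes were, per comparison, up to 10 higher and up to 10 lower with the interval bound nearest 1 farthest from 1, among those past 2-fold, without sex-linked genes or genes with a higher level in other cells. Against other classes they were taken from the 10 with the largest smallest fold over the 4 libraries. Genes of the lists, and genes that split the members, were named after their values were seen. A further drug named in the labels was not analysed here. Alternatives covered scaling, cell weights, sex, the rule's limits, amacrine markers, depth and the UMI minimum. Leaving out cells with 2 or more OFF genes was chosen after seeing the data.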

Additional observations from a re-analysis of the deposited data

How the results depend on the processing

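No paired analysis was possible because each group has 1 library. Of 630 alternative values for named genes, 621 kept their direction. The 9 reversals, as log2 ratios, were in Otor after bleach, at -0.082 without cells above 2 times the median UMIs and -0.021 without cells with OFF genes; in Rims1 after bleach, at 0.64 (Y-linked and no Xist UMI), 0.41 (Scgn required), 0.39 (without amacrine markers) and 0.12 (without cells above 2 times the median UMIs); and, without cells with OFF genes, in Neto1, at 4.50 after bleach and -0.30 with BC11-38, and Grik1, at 0.51 with BC11-38. Neto1 and Grik1 help to define the cells with OFF genes, so their values without those cells depend on that choice. The cause of the reversals was not tested.

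Counts past 2-fold followed the UMI minimum. At 50 UMIs they were 71 higher and 31 lower after bleach, 46 and 87 for rolipram, 65 and 140 for BC11-38, and 61 and 47 for rolipram against BC11-38. At 200 UMIs they were 6 and 7, 7 and 19, 15 and 25, and 1 and 9. In cells with a Y-linked and no Xist UMI, where fewer cells remain, 5 were lower after bleach, 11 higher with rolipram, 11 higher with BC11-38, and 3 higher and 8 lower for rolipram against BC11-38. With Scgn required, and with fewer than 2 rod bipolar genes, 7 were lower after bleach. Without cells with OFF genes, 10 were higher after bleach and 33 lower with BC11-38.

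The immediate early median became 0.22 (without cells above 2 times the median UMIs) and 0.25 (without OFF genes) after bleach, and 0.051 with rolipram without OFF genes. With BC11-38 it was -0.58 (each cell weighed the same), -1.04 (Y-linked), -0.69 (without amacrine markers), -0.50 (without cells above 2 times the median UMIs) and 0.052 (without OFF genes), and 0.44 (Y-linked) for rolipram against BC11-38. The mitochondrially encoded median became -0.13 (each cell weighed the same) and -0.086 (without OFF genes) after bleach, 0.063 (Y-linked) and -0.12 (fewer than 2 rod bipolar genes) with rolipram, 0.29 and 0.20 with BC11-38 under the former 2 settings, and -0.26 without OFF genes for rolipram against BC11-38. Shares of members were 1.83%, 2.34% and 2.84% without bleach, with vehicle and with rolipram at fewer than 2 rod bipolar genes. They were 10.3%, 10.1%, 11.6% and 9.35% of cells with Gng13, and 2.94%, 3.98%, 3.99% and 3.37% after thinning. Depth limits genes at a few UMIs, such as Pde11a.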
